A study of Mus musculus with 12 samples.

Results

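The peptide hormones of the pancreatic islet were followed across 4 mouse genotypes. The list held 8 genes: the insulin genes Ins1 and Ins2, amylin (Iapp), glucagon (Gcg), somatostatin (Sst), pancreatic polypeptide (Ppy), peptide YY (Pyy) and ghrelin (Ghrl). Probes were matched to the genes through the RefSeq accession given for each probe, and 7 of the 8 genes were measured by 10 probes, of 17305 named genes and 41174 probes on the array. Iapp was matched to no probe and is not analysed here. Islets came from WT mice, from mice lacking the PPARγ2 isoform (PPARγ2KO), from obese leptin-deficient ob/ob mice and from POKO mice, which carry both the ob mutation and the PPARγ2 deletion. All were on a mixed C57BL/6 x Sv129 background, were fed chow and were 4 weeks old by the labels, while the study's text gives a slightly older age for the array animals. Both genetic changes were carried by the whole animal and were not confined to islet cells. Each array held islets pooled from several mice, collected by hand after collagenase digestion and kept in culture overnight, with n = 3 arrays per genotype by the labels and files, although the study's methods mention a group with fewer samples. Since a pool hides the spread between animals, the errors given here are those between pools.

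Each islet hormone is the product of 1 main endocrine cell type. Insulin is made by beta cells, glucagon by alpha cells, somatostatin by delta cells, pancreatic polypeptide by PP cells and ghrelin by a rare cell type found mainly before birth, while peptide YY is shared by several islet cells. All are cut from longer precursors by prohormone convertases inside secretory granules, and somatostatin restrains the release of both insulin and glucagon. In leptin deficiency islets enlarge and secrete more insulin. The study asked which islet genes change early in obese mice and whether that change needs PPARγ2.

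The stretch of 250 bases before a transcript start in the RefSeq promoter table is shown for 5 hormone genes, because 4 of them (Ins1, Gcg, Ppy and Pyy) had the smallest unadjusted p-values in ob/ob vs. WT and Sst had its lowest mean in POKO. They were chosen after the values were seen. Sequences are from RefSeq on GRCm38.p6, on the coding strand, with capitals marking 3 motifs searched on both strands. These were the TATA box letters TATAAA, the core letters of many homeodomain sites, TAAT, and the cyclic AMP response element, TGACGTCA. No 2 matches share letters in these 5 windows. The windows lie at chr19:52264047-52264296 (+) for Ins1, chr2:62483654-62483903 (-) for Gcg, chr16:23890845-23891094 (-) for Sst, chr11:102101320-102101569 (-) for Ppy and chr11:102107833-102108082 (-) for Pyy. The Sst window lies inside the gene interval given below, which reaches farther 5′ and covers more than 1 transcript, so for Sst the start is a downstream one, while the other windows abut the end of their gene.
Ins1: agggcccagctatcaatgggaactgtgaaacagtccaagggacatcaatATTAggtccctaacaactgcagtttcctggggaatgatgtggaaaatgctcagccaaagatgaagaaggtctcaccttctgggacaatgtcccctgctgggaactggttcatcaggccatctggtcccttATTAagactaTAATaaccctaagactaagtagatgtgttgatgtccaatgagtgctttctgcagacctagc
Gcg: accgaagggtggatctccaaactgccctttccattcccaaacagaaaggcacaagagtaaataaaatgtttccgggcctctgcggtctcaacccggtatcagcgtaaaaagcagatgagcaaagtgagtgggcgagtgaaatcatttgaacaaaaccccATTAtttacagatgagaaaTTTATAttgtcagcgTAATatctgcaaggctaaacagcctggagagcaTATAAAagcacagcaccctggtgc
Sst: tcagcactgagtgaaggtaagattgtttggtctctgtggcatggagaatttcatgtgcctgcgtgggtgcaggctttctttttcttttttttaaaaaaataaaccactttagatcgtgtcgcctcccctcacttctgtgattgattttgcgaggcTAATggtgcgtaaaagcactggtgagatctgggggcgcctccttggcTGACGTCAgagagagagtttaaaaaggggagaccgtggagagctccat
Ppy: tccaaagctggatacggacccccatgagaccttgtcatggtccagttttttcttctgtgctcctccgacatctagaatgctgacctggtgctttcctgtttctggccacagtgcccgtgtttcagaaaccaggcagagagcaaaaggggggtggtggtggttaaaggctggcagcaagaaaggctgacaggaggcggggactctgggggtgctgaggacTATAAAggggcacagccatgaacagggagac
Pyy: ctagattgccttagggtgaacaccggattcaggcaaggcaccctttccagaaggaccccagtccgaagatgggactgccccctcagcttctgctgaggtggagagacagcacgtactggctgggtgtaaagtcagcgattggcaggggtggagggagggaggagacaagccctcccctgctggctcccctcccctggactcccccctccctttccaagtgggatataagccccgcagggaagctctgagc
Ins1 held 3 TAAT matches, Gcg 2 and Sst 1, and 54.9% of 32851 promoter windows of this length held at least 1. Sst held the only TGACGTCA match, 48 bases before that downstream start and within the gene interval, a motif found in 1.55% of windows. Gcg held TATAAA 2 times and Ppy 1 time, against 12.4% of windows with a match. The Pyy window held none of these letters. Ppy and Pyy are neighbours on chromosome 11, with 5356 bases between the genes.

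The scanner output gives each spot a processed signal, its brightness after background subtraction. Levels below are the log2 of that signal after quantile normalization, which gives every array the same distribution of values. The share of spots well above background was 54.3% to 64.9% per array and no spot was saturated. Pparg, the targeted gene, was measured at 6.60 to 7.44 in PPARγ2KO and 6.41 to 7.14 in POKO against 8.85 to 8.98 in WT and 8.54 to 9.77 in ob/ob. The deletion lines did not overlap with the others, although the differences from WT did not pass adjustment (POKO -2.01, adjusted p = 0.0643, and PPARγ2KO -1.79, adjusted p = 0.257, in limma), and leptin is not analysed here. The 3 slides held 1 array of each genotype, with a genotype at the same slide position every time, so that position and genotype cannot be told apart. Acinar enzyme probes were bright in every sample, and the summed signal of their 13 genes lay between 21.49 and 21.75 on the log2 scale over the 12 arrays, so exocrine RNA was present in all preparations. By spot quality WT replicate 2 stood out, with 152 outlier spots against 82 and 67 on WT replicates 1 and 3. It also had the lowest share well above background, 54.3%. By hormone level another WT array stood apart: WT replicate 3 had the highest level of its genotype for 6 of 6 hormones (Ins2 left out). Its summed beta cell markers were 14.85, against 13.17 and 13.87. Hormone differences from WT that it moves most are therefore given with and without it. Since this array was singled out by its high hormone levels, leaving it out lowers the WT mean of these hormones by selection. The p-values of those fits are therefore no independent support. For the marker lists no fit without it was tabulated. In whole islets fewer cells of a type and less RNA per cell cannot be told apart.

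Ins2, the major and more widely conserved insulin gene (chr7:142678656-142679726), was at the upper end of what the arrays could measure. Its brighter probe ranked 1st or 2nd of all probes on every array. The processed signal of this probe was 445665 to 531450, a 1.19-fold range over 12 arrays. Against spike-in control RNAs, the scanner software placed the upper end of the linear range at 492720 to 639102, and the Ins2 signal was 76.5% to 107.9% of it. It exceeded the linear range on 1 of 12 arrays, PPARγ2KO replicate 2. After quantile normalization a probe of such rank can take few values, and Ins2 took 18.90 or 18.95 on each array. The second Ins2 probe, printed on 10 spots, ranked 3rd to 6th, and its normalized level ranged from 18.46 to 18.61. This probe lay within the linear range on all arrays, at 58.3% to 89.7% of its upper end. The SD between its spots within an array had a median of 0.149 on the log2 scale. That was about as wide as its whole range of 0.15 over arrays, although a mean of spots is known better than 1 spot. The correlation of both Ins2 probes over the 12 arrays was r = 0.549. A change of Ins2 between genotypes was therefore not measurable with the brighter probe, and the rank of the second also left its normalized level little room. A difference of 0.00 to 0.04 in the comparisons below does not show that Ins2 RNA was alike.

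**Figure D1:**
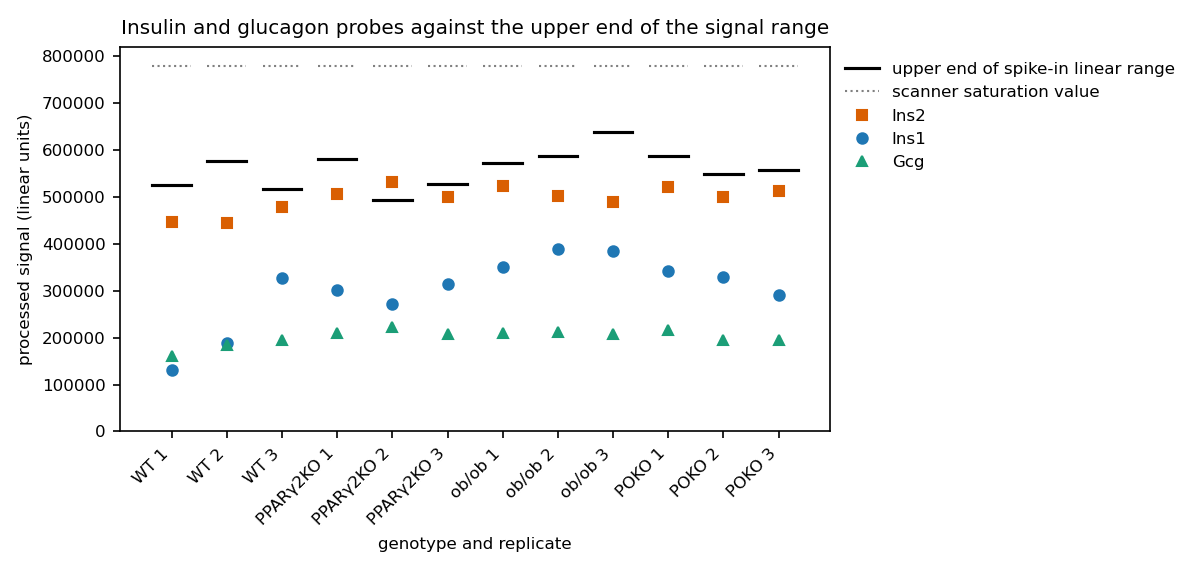
Processed signal (linear units, vertical axis) of the Ins2, Ins1 and Gcg probes on each of the 12 arrays (horizontal axis), with the upper end of the spike-in linear range (solid line) and the saturation value of the scanner (dotted line) for each array. Ins2 lies at 76.5% to 107.9% of the linear range, whereas Ins1 lies between 25.1% and 66.1% and is lowest on WT replicates 1 and 2.

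Ins1, the rodent copy of the insulin gene (chr19:52264297-52265015), had a single spot. It was bright but within the linear range on all arrays, at 25.1% to 66.1% of the upper end. Its rank was 3rd to 5th in ob/ob, 6th to 14th in POKO, 9th to 25th in PPARγ2KO and 6th to 46th in WT. At the highest of these ranks its normalized level also had little room, as for the second Ins2 probe. The normalized level was 17.07, 17.39 and 18.38 in WT. It was 18.12, 17.90 and 18.28 in PPARγ2KO, 18.42, 18.62 and 18.58 in ob/ob, and 18.34, 18.28 and 18.15 in POKO. All ob/ob arrays lay above all arrays of the other genotypes, and WT spanned nearly the whole range of the series through its replicate 3. The order of means was ob/ob, POKO, PPARγ2KO and WT, and no neighbours in this order differed in the limma fit (adjusted p = 0.621 to 0.862). The insulin genes are close copies, and without the probe sequences it was not tested whether the Ins1 probe also binds Ins2 RNA.

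Gcg (chr2:62474530-62483653), which encodes the precursor of glucagon and of the glucagon-like peptides, was measured on 10 spots per array. Its level was 17.45, 17.38 and 17.67 in WT and 17.60, 17.49 and 17.70 in PPARγ2KO. It was 17.81, 17.73 and 17.72 in ob/ob and 17.65, 17.58 and 17.59 in POKO. The range over all arrays was only 0.43, and all ob/ob arrays were above all WT, PPARγ2KO and POKO arrays in normalized level. Before normalization the processed signal of ob/ob, 207834 to 212108, lay within that of PPARγ2KO (207625 to 223648) and of POKO (194815 to 217181). It was above that of WT (161466 to 194144). The spots of 1 array differed from each other with a median SD of 0.17, so each level is known from 10 spots of moderate agreement. Gcg also ranked high, between 23rd and 38th.

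Sst (chr16:23889573-23891342), the delta cell hormone that inhibits its neighbours, had a median SD of 0.0562 between its 10 spots. It was 14.99, 15.47 and 16.30 in WT and 15.79, 16.23 and 16.28 in PPARγ2KO. It was 15.63, 16.23 and 16.10 in ob/ob and 15.39, 14.83 and 14.58 in POKO. The 3 POKO arrays were below all ob/ob and all PPARγ2KO arrays, and overlapped with WT. The order of means was PPARγ2KO, ob/ob, WT and POKO, with neighbours not past the test (adjusted p = 0.383 to 0.892). The spread of WT, SD 0.66, was many times the spread between spots.

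Ppy (chr11:102099931-102101319), the PP cell hormone, was 14.80, 14.49 and 15.82 in WT. It was 15.66, 15.80 and 15.74 in PPARγ2KO, 15.84, 15.78 and 16.005 in ob/ob, and 15.29, 15.29 and 15.05 in POKO. POKO lay below ob/ob and PPARγ2KO without overlap, and above WT replicates 1 and 2 but not replicate 3. For Pyy (chr11:102106676-102107832), a gut and islet peptide of the same family, the brighter probe gave 16.02, 16.22 and 17.07 in WT. It gave 16.53, 16.96 and 17.00 in PPARγ2KO, 17.34, 17.37 and 16.98 in ob/ob, and 17.04, 17.05 and 16.26 in POKO. The second Pyy probe followed the first (r = 0.888 over 12 arrays). No genotype stood clear of all the others for Pyy.

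Ghrl (chr6:113716119-113719911), the precursor of ghrelin, had a low signal, although both probes were well above background on all 12 arrays. Its level was 6.39, 5.88 and 7.45 in WT and 8.01, 7.11 and 8.17 in PPARγ2KO. It was 7.51, 6.64 and 8.58 in ob/ob and 8.33, 7.997 and 6.27 in POKO. The spread within genotypes, SD 0.57 to 1.11, stood against differences between their means of up to 1.19. Both probes gave this pattern (r = 0.987).

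**Figure D2:**
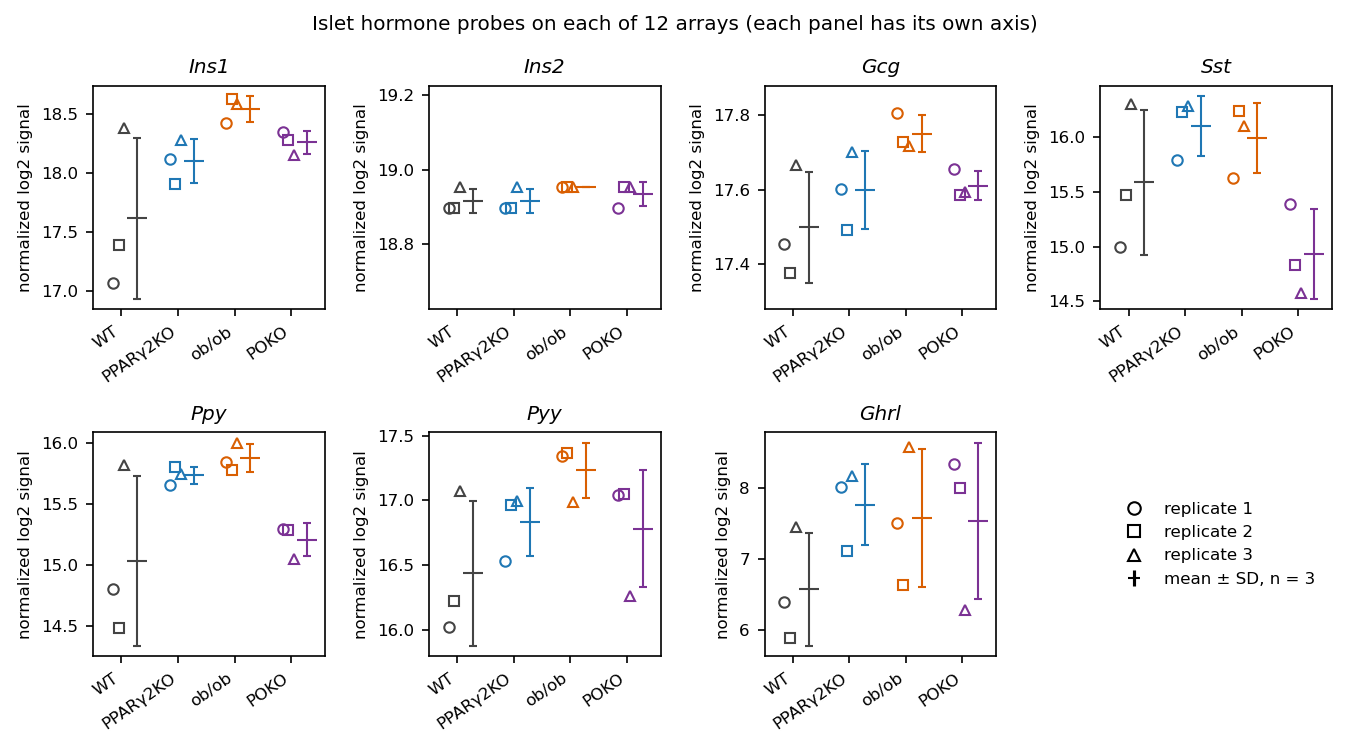
Normalized log2 signal (vertical axis, its own range in each panel) of the 7 measured hormone genes on each of the 12 arrays, by genotype, with the mean ± SD of 3 arrays beside the points. WT replicate 3 (triangle) is at the top of WT in each panel. For Sst the POKO arrays lie between 14.58 and 15.39, below all ob/ob and PPARγ2KO arrays. POKO replicate 1 (15.39) is above WT replicate 1 (14.99), and POKO replicates 2 and 3 are below it.

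In ob/ob vs. WT, the comparison of obese with lean islets that both have PPARγ2, all 7 fitted differences were above 0. That of Ins2, 0.04, came from its 2 normalized values and shows no direction. Of the 7 hormones, 0 passed an adjusted p of 0.05 in limma with Benjamini-Hochberg over all probes, beside 11.1% of all probes. At an unadjusted p under 0.05, 4 of 7 passed, against 31.1% of probes. The difference of Ins1 was 0.93 (SE 0.28), a 1.9-fold higher level, with a 95% interval of 0.30 to 1.56 and adjusted p = 0.0614. The size depended on the processing, from 0.53 with arrays scaled to their 75th percentile (adjusted p = 0.135) to 1.504 with the authors' values (adjusted p = 0.083). Ppy differed by 0.84 (SE 0.28, adjusted p = 0.0789), Pyy by 0.79 (SE 0.31, adjusted p = 0.114) and Gcg by 0.25 (SE 0.09, adjusted p = 0.0976). Sst (0.40, SE 0.34) and Ghrl (1.00, SE 0.67) had intervals that included 0, and without WT replicate 3 they were 0.75 (adjusted p = 0.104) and 1.44 (adjusted p = 0.193). The median difference of the hormones was 0.79 on the log2 scale, beside -0.08 for all probes. Arrays of ob/ob and WT did not overlap for 2 of 7 hormones, Ins1 and Gcg, both higher in ob/ob, beside 11.3% of probes that were higher without overlap.

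These differences depended on WT replicate 3. Without it, 4 of 7 hormones were higher in ob/ob in the limma test: Ppy by 1.23 (adjusted p = 0.00429), Ins1 by 1.31 (adjusted p = 0.00459), Pyy by 1.11 (adjusted p = 0.0233) and Gcg by 0.33 (adjusted p = 0.027). In that fit 20.5% of all probes passed. Leaving out WT replicate 1 or 2 instead gave 0.65 and 0.81 for Ins1, and 0 of 7 hormones passed in either limma fit. Within the slides, the Ins1 difference was 1.35 and 1.23 on the slides of replicates 1 and 2 and 0.20 on that of replicate 3, and Ppy showed 1.04, 1.29 and 0.18. At an adjusted p limit of 0.2 with all arrays, 4 of 7 hormones passed, beside 35.3% of probes. With weights for single arrays Ins1, Gcg, Ppy and Pyy passed, beside 32.7%, and with dim probes left out Ins1 and Ppy, beside 22.3%. The Gcg difference turned to -0.14 (adjusted p = 0.519) when arrays were scaled to their 75th percentile in place of quantiles, which also moved the median of all probes from -0.08 to -0.19.

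**Figure D3:**
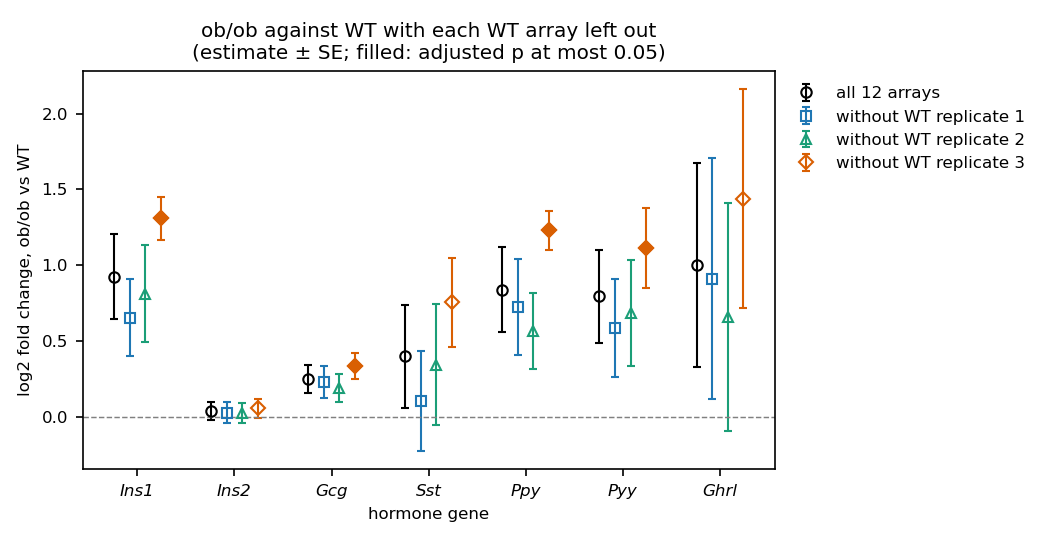
Log2 fold change ± SE in ob/ob vs. WT (vertical axis) of the 7 hormone genes (horizontal axis) with all 12 arrays and with each WT array left out, filled symbols marking an adjusted p of at most 0.05. The 4 filled symbols, Ins1, Gcg, Ppy and Pyy, appear when WT replicate 3 is left out.

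Markers of other cells moved between the same groups. In ob/ob vs. WT, 6 of 8 T cell genes and 4 of 6 B cell genes rose, beside 4.92% of all probes that rose and 6.14% that fell. The other T cell genes had differences below 0, Cd3e of -1.48 (adjusted p = 0.118) and Cd4 of -0.11 (adjusted p = 0.732) in limma. The summed B cell signal was 10.29 to 11.90 in ob/ob against 6.45 to 6.72 in WT. Summed duct signal was 15.59 to 16.18 in ob/ob against 16.32 to 16.52 in WT, and 4 of 7 duct genes fell (Cftr, Krt19, Muc1 and Sox9). None of the 13 acinar or 6 stellate cell genes passed, while 2 of 6 endothelial and 1 of 7 macrophage genes rose. Of the endocrine lists, which hold no hormone, 1 of 9 beta cell genes, 1 of 7 alpha cell genes and 1 of 4 delta cell genes rose. The alpha cell gene was Gc, a vitamin D binding protein, and the delta cell gene was Casr, the calcium-sensing receptor, and these marker genes are named because they passed. The summed beta cell signal was 14.68 to 15.13 in ob/ob and 13.17 to 14.85 in WT. The share of spots well above background also differed, at 54.3% to 57.5% in WT and 60.4% to 64.9% in ob/ob. The part of these shifts in the hormone differences was not tested.

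In POKO vs. WT, obese islets without PPARγ2 were set against lean islets with it. Here 6 of 7 hormones had a difference above 0, among them Ins2 at 0.02 from its 2 normalized values. The median of the 7 differences was 0.17 beside -0.08 for all probes. In limma 0 of 7 passed, beside 0.194% of all probes, while 1 of 7 passed at an unadjusted p under 0.05, against 16.4%. That gene was Ins1, with a difference of 0.64 (SE 0.28, 95% interval 0.01 to 1.27, adjusted p = 0.295). Without WT replicate 3 it was 1.03 (adjusted p = 0.0272), when 1.19% of probes passed, and with array weights it was 0.79 (adjusted p = 0.0336), when 9.84% passed. With each array left out in turn, the Ins1 difference ran from 0.37 to 1.03 (limma adjusted p = 0.0272 to 0.596). Ppy differed by 0.17 (SE 0.28), and by 0.57 (adjusted p = 0.0615) without WT replicate 3, and Gcg by 0.11 (SE 0.09). Sst was the hormone below WT, by -0.66 (SE 0.34, adjusted p = 0.383), and -0.30 (adjusted p = 0.583) without WT replicate 3, and its within-slide differences were 0.39, -0.64 and -1.72. The sign for Sst thus turned between slides. Marker sums of other cells moved here too. The B cell sum was 10.16 to 11.76 in POKO against 6.45 to 6.72 in WT. The macrophage sum was 10.67 to 11.49 against 9.33 to 10.44. In limma 0 of 6 B cell and 0 of 7 macrophage genes passed, and the part of these shifts in the hormone differences was not tested.

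In PPARγ2KO vs. WT, the effect of the deletion in lean mice, 0 of 7 hormones and 0% of all probes passed in limma. At an unadjusted p under 0.05, 1 of 7 passed, against 9.37% of probes. That was Ppy, with a difference of 0.70 (SE 0.28, adjusted p = 0.505), which was 1.09 (adjusted p = 0.0371) without WT replicate 3, when 0.085% of probes passed. With each array left out in turn, the Ppy difference ran from 0.43 to 1.09 (limma adjusted p = 0.0371 to 0.807). Ins1 differed by 0.48 (SE 0.28), Sst by 0.51 (SE 0.34), Pyy by 0.39 (SE 0.31) and Ghrl by 1.19 (SE 0.67), with all 4 intervals including 0. Without WT replicate 3 these were 0.87 (adjusted p = 0.0739), 0.87 (adjusted p = 0.218), 0.71 (adjusted p = 0.25) and 1.63 (adjusted p = 0.309) in limma, in the same order. The arrays overlapped for 7 of 7 hormones, while 12.6% of probes did not overlap.

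In POKO vs. ob/ob, the deletion in obese mice, all 7 fitted differences were below 0, but Gcg (0.0724) and Ins2 (0.14) were above 0 with 75th percentile scaling and Ghrl (0.48) with array weights. In the main fit Ins2 (-0.02) and Ghrl (-0.04) were near 0, and Ins2 took only 2 normalized values. The median of the 7 differences was -0.28 beside 0.01 for all probes. Of the 7 hormones 0 passed in limma, beside 0.00486% of all probes, and 2 of 7 passed at an unadjusted p under 0.05, against 9.28% of probes. Sst was lower by 2.08-fold, a log2 difference of -1.06 (SE 0.34, 95% interval -1.82 to -0.29, limma adjusted p = 0.531). It was lower on each slide, by -0.24, -1.40 and -1.52. Ppy differed by -0.67 (SE 0.28, adjusted p = 0.532) and was lower on each slide too, by -0.55, -0.50 and -0.95. Arrays did not overlap for 4 of 7 hormones, Ins1, Gcg, Sst and Ppy, all lower in POKO, beside 8.94% of probes that were lower without overlap. With weights for single arrays in the fit, Sst (-1.25, adjusted p = 0.023) and Ppy (-0.62, adjusted p = 0.0471) passed, and so did 13.1% of all probes. The adjusted p of Sst lay between 0.023 and 0.885 over 24 alternatives.

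Delta cell genes other than the hormone were set beside Sst. Of 4 (Hhex, Rbp4, Ghsr and Casr), 0 passed in POKO vs. ob/ob in limma, beside 0.00486% of all probes. Rbp4 differed by -0.62 (adjusted p = 0.531) and Ghsr by 0.42 (adjusted p = 0.531). Their summed signal was 12.53 to 12.97 in POKO, 13.24 to 13.43 in ob/ob, 13.00 to 13.42 in PPARγ2KO and 12.42 to 13.34 in WT. The sum was taken on the linear scale and was mostly Rbp4, since no array exceeded 8.94 for Hhex, 5.17 for Ghsr or 5.13 for Casr. The POKO arrays were below ob/ob and PPARγ2KO for this sum, which follows 1 gene more than the list. The summed beta cell markers were also lower in POKO, at 13.89 to 14.23 against 14.68 to 15.13 in ob/ob, with 0 of 9 genes past the limma test. The part of these shifts in the Sst difference was not tested. Hhex, the transcription factor of delta cells, was 8.10 to 8.32 in POKO and 8.22 to 8.72 in ob/ob, a difference of -0.31 (SE 0.24, adjusted p = 0.706).

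Whether the deletion acted differently in obese and lean mice was tested as an interaction: POKO minus ob/ob, less PPARγ2KO minus WT. All 7 estimates were below 0, although that of Ins2 (-0.02) came from its 2 normalized values. The median of the 7 was -0.84 beside 0.04 for all probes, and the estimates share the same 12 arrays. In limma 0 of 7 hormones and 0% of probes passed adjustment. At an unadjusted p under 0.05, 2 of 7 hormones passed, against 13.9% of probes. The interaction was -1.57 for Sst (SE 0.48, adjusted p = 0.274) and -1.37 for Ppy (SE 0.40, adjusted p = 0.27). Without WT replicate 3, Ppy (-1.76, adjusted p = 0.0323) and Ins1 (-1.15, adjusted p = 0.0388) passed while Sst did not (-1.92, adjusted p = 0.0539). In that fit 1.66% of probes passed. With each array left out in turn, the Ppy interaction ran from -1.76 to -1.09 (limma adjusted p = 0.0323 to 0.52). That of Ins1 ran from -1.15 to -0.495 (limma adjusted p = 0.0388 to 0.599). For Gcg the deletion went with a higher level on all 3 slides in lean mice, by 0.15, 0.11 and 0.04, and a lower level on all 3 slides in obese mice, by -0.15, -0.14 and -0.12 (a direction that 75th percentile scaling turned in obese mice), but the interaction was -0.24 (SE 0.13, adjusted p = 0.434).

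**Figure D4:**
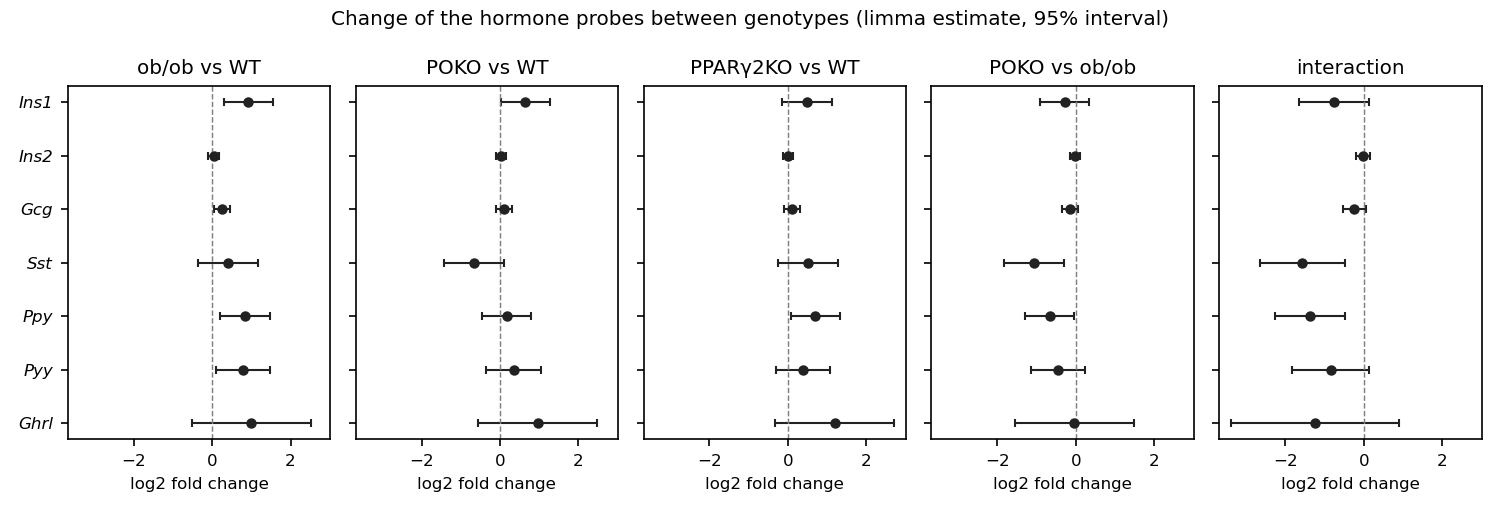
Limma log2 fold change with its 95% interval (horizontal axis, shared by the panels) for the 7 hormone genes (vertical axis) in 4 comparisons between genotypes and for the interaction. All 7 points are above 0 in ob/ob vs. WT and below 0 in POKO vs. ob/ob, and both comparisons share the ob/ob arrays. The Ins2 points (0.04 and -0.02) come from its 2 normalized values and show no direction.

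Among the other comparisons, POKO vs. PPARγ2KO gave 0 of 7 hormones past adjustment in limma (0.00971% of probes) and 1 of 7 at an unadjusted p under 0.05 (11.1% of probes). That was Sst, at -1.17 (SE 0.34, adjusted p = 0.293). Arrays did not overlap for 2 of 7 hormones, Sst and Ppy, lower in POKO, beside 16.1% of probes that were lower without overlap. In ob/ob vs. PPARγ2KO, 0 of 7 passed with or without adjustment in limma, beside 0.00486% and 19.3% of probes. For both obese genotypes against both lean ones, 0 of 7 passed after adjustment (9.04% of probes) and 1 of 7 before it (28.2%). Ins1 then differed by 0.54 (SE 0.20, adjusted p = 0.109), by 0.24 with 75th percentile scaling (adjusted p = 0.351) and 0.97 with the authors' values (adjusted p = 0.117), and it was 0.73 higher without WT replicate 3 (adjusted p = 0.00895), when 16.7% of probes passed. With each array left out in turn, the Ins1 difference ran from 0.41 to 0.73 (limma adjusted p = 0.00895 to 0.212). At an adjusted p limit of 0.2 Ins1 passed alone of the hormones, beside 30.9% of probes, and likewise with array weights, beside 25.3%. For both deletion genotypes against both with PPARγ2, 0 of 7 passed with or without adjustment in limma (0% and 3.76% of probes). With the replicate number, and so the slide, as a block, 0 of 7 hormones passed in each of the 9 comparisons, beside 12% of probes in ob/ob vs. WT, 9.56% in obese vs. lean, 0.0194% in POKO vs. WT, 0.00486% in POKO vs. PPARγ2KO, 0.00243% in ob/ob vs. PPARγ2KO and 0% in the other 4.

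The insulin genes were also compared with each other within an array, as the Ins1 minus the Ins2 level. This difference was -0.54 ± 0.18 (SD, n = 6) in obese and -1.06 ± 0.50 (SD, n = 6) in lean arrays. The gap between them was 0.52 on the log2 scale (exact two-sided permutation test, p = 0.0281, adjusted over 2 comparisons p = 0.0562, smallest p possible 0.00216). Between deletion and intact genotypes it was 0.11 (exact two-sided permutation test, p = 0.665). Since the normalized Ins2 level took only 2 values, this contrast followed Ins1 and adds no evidence beyond the Ins1 comparison above. It lost its unadjusted call with normexp background correction (0.37, exact permutation p = 0.0519) and without WT replicate 1 or 2, PPARγ2KO replicate 2 or any ob/ob array (0.36 to 0.53, exact permutation p = 0.0519 to 0.0563).

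Taken over all genotypes, the hormones deviated from their genotype means together, but this did not hold within ob/ob. After subtraction of each genotype's mean, the 15 pairs of hormones without Ins2 had correlations between 0.441 and 0.828 over the 12 arrays, given as a description. The pair with 0.828 was Ins1 and Ppy, products of different cell types, and Ins1 and Sst had 0.810. Of the 6 hormones, replicate 3 was highest for 6 in WT and 5 in PPARγ2KO, and lowest for 5 in POKO. In ob/ob replicate 3 was highest for 2 and lowest for 2, and replicate 2 highest for 3 and lowest for 2. WT also had the widest Ins1 deviations, with an SD of 0.68 against 0.10 to 0.19 in the other genotypes. Arrays of 1 replicate number shared a slide, so the slide of replicate 3 held both high and low arrays.

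The named genes whose level followed each hormone most closely were sought among 11720 genes well above background on all 12 arrays. For Ins1 these were Eva1b (r = 0.967), Ntrk2, a neurotrophin receptor (r = 0.962), and Dcx, a microtubule-binding protein of young neurons (r = 0.962). For Sst they were Efnb3, an ephrin (r = 0.950), Dnajc27 (r = 0.939) and Akap17b (r = 0.928). Pyy was followed by Mgat3 (r = 0.944), Pkig (r = 0.940) and Rfx6, a transcription factor of the endocrine lineage (r = 0.942). Ppy was followed by Prkar1a, a regulatory subunit of protein kinase A (r = 0.940), Tcf4 (r = 0.930) and Fuz (r = 0.929). The genes for Gcg were Tmprss4 (r = 0.935), Eaf2 (r = 0.929) and Emsy (r = 0.924). For Ghrl the values were lower, with Bscl2 (r = 0.823), Zfp330 (r = 0.809) and Adamts9 (r = 0.790), and for Ins2, with its 2 levels, H4c1 (r = 0.916), Zfp462 (r = 0.908) and Bcr (r = 0.901) came first. With 12 arrays and 11720 genes, high values arise for any pattern, and the points share the same pools of islets.

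Enzymes and granule proteins that turn prohormones into hormones were set beside them. Of 12 measured genes of this list, 4 rose and 1 fell in ob/ob vs. WT, beside 4.92% of all probes that rose and 6.14% that fell, and the list's median was 0.99 beside -0.08 for all probes. Their summed signal was 17.76, 18.40 and 18.46 in ob/ob and 16.44, 17.02 and 17.81 in WT, so that WT replicate 3 lay above ob/ob replicate 1. The part of this array, and of the lymphocyte and duct shifts above, in the list's difference was not tested beyond leaving out arrays. Pcsk1, a convertase that cuts proinsulin, was 12.001 to 12.83 in ob/ob and 10.003 to 11.76 in WT, a rise of 1.72 (SE 0.44, adjusted p = 0.0407). Cpe, the carboxypeptidase that trims the cut ends, rose by 1.74 (SE 0.35, adjusted p = 0.0259) to 15.46 to 16.21 from 13.46 to 14.96. Neither pair of groups overlapped. Scg5, the chaperone of the second convertase, rose by 1.73 (adjusted p = 0.0277) and Pam, which amidates peptides such as pancreatic polypeptide, by 1.40 (adjusted p = 0.0336). Furin, a convertase of the general secretory pathway, fell by 0.55 (adjusted p = 0.0348). Pcsk2, the convertase needed for glucagon and somatostatin, differed by 1.08 (SE 0.38, adjusted p = 0.0885).

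In POKO vs. WT, 0 of these 12 genes passed in limma (0.194% of probes), and the values were 1.05 for Cpe (SE 0.34, adjusted p = 0.182), 0.93 for Pcsk1 (SE 0.44, adjusted p = 0.338) and 0.25 for Pcsk2 (SE 0.38, adjusted p = 0.758). In POKO vs. ob/ob also 0 of 12 passed, beside 0.00486% of probes, with Pcsk1 at -0.79 (adjusted p = 0.609). The list's median was -0.74 there, beside 0.01 for all probes, and 2 of the 12 differences were above 0. When both obese genotypes were set against both lean ones, Cpe, Scg5, Pam and Pcsk1 rose, 4 of 12 genes, beside 4.23% of probes that rose and 4.81% that fell. The ob/ob calls were near the limit: leaving out each array in turn kept Cpe and Scg5 past it in 8 of 12 fits, Pam and Furin in 5 and Pcsk1 in 4. All 12 of those fits kept the direction of each of the 5 genes. Without WT replicate 1, the values were 1.38 for Cpe (adjusted p = 0.0678) and 1.36 for Pcsk1 (adjusted p = 0.121), and without WT replicate 3 they were 2.13 for Cpe (adjusted p = 0.00551) and 2.24 for Pcsk1 (adjusted p = 0.0069). In obese vs. lean, Cpe passed in 10 of these 12 fits, Pam and Scg5 in 4 and Pcsk1 in 3.

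**Figure D5:**
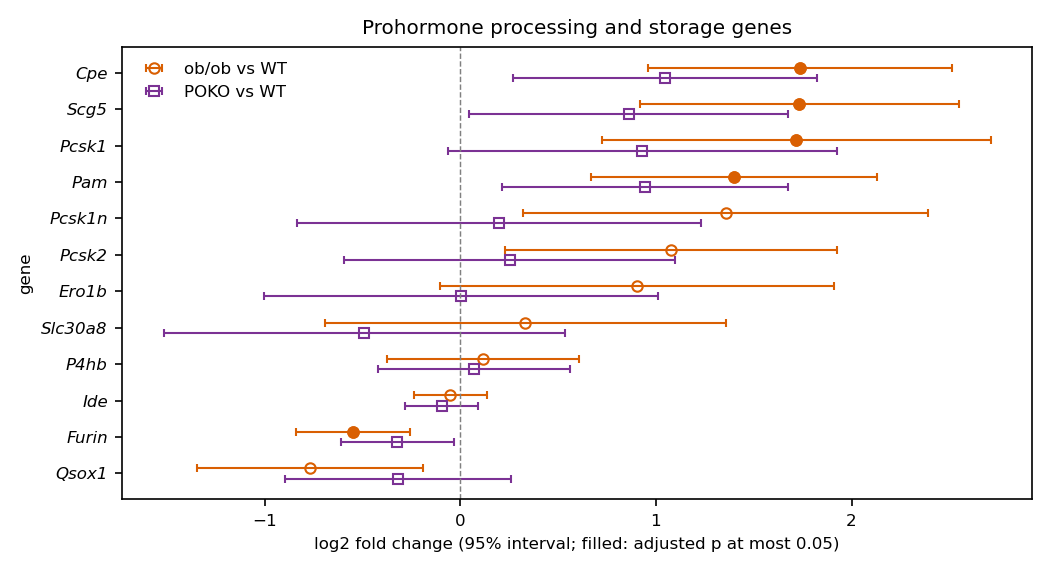
Limma log2 fold change with its 95% interval (horizontal axis) for the 12 measured genes of prohormone processing and storage (vertical axis), in ob/ob vs. WT (circles) and POKO vs. WT (squares), filled where the adjusted p is at most 0.05. The 5 filled circles are Cpe, Scg5, Pcsk1 and Pam above 0 and Furin below 0, and no square is filled.

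Of 15 measured genes for hormone receptors and their partners, 2 rose and 1 fell in ob/ob vs. WT, beside 4.92% and 6.14% of probes, and 9 of the 15 were well above background on all arrays. Npy1r, Npy2r and Npy5r were so on 0 arrays and Calcr, the calcitonin receptor that pairs with these partners to bind amylin, on 1. Ramp3 and Ramp2, membrane partners that give the calcitonin family of receptors their specificity, including that for amylin, rose by 1.27 (adjusted p = 0.0195) and 1.24 (adjusted p = 0.034). Both are also expressed in endothelium, and the endothelial genes Cdh5 (1.17, adjusted p = 0.025) and Esam (1.46, adjusted p = 0.0305) rose too, with a summed endothelial signal of 12.11 to 12.42 in ob/ob and 10.65 to 11.74 in WT. The part of this shift in the Ramp2 and Ramp3 rise was not tested. Sstr4, a somatostatin receptor, fell by 0.82 (adjusted p = 0.0386) to 5.94 to 6.58 from 6.95 to 7.04, and by only 0.23 (adjusted p = 0.0511) with normexp background correction. Leaving out each array kept Ramp3 past the limit in 8 of 12 fits, Ramp2 in 5 and Sstr4 in 4. Glp1r, the receptor of glucagon-like peptide 1 on beta cells, differed by -0.17 (SE 0.34). Gcgr was matched to no probe. In limma 0 of 15 passed in POKO vs. WT (0.194% of probes) and in POKO vs. ob/ob (0.00486%).

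Of 20 islet transcription factors, 17 were well above background on all arrays, and Foxa1 and Pax4 were so on 0 arrays. In ob/ob vs. WT 1 of the 20 rose, a share near the 4.92% of all probes that rose, and 16 had a difference above 0. It was Nkx6-1, a factor of mature beta cells, which rose by 1.09 (SE 0.28, adjusted p = 0.0397) and passed in 4 of 12 fits with an array left out. Pdx1, which binds the insulin promoters, was 6.53 to 7.57 in WT and 6.94 to 7.45 in ob/ob and differed by 0.14 (SE 0.25). Mafa, an activator of insulin transcription, was 5.43 to 6.87 in WT, 2.48 to 6.35 in PPARγ2KO, 4.74 to 5.57 in ob/ob and 3.81 to 4.52 in POKO, with 11 of 12 arrays well above background, and its difference in POKO vs. WT was -1.95 (SE 0.82, adjusted p = 0.28), close to that in PPARγ2KO vs. WT (-1.87, SE 0.82, adjusted p = 0.525). Hhex differed by 0.07 (SE 0.24) in ob/ob vs. WT. In POKO vs. ob/ob, 0 of 20 passed in limma, beside 0.00486% of all probes. Of the 20, 18 had a difference below 0, with a list median of -0.66 beside 0.01 for all probes, and Pdx1 at -0.62 (SE 0.25, adjusted p = 0.531).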

How the data were processed

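Total RNA of islet pools was labelled with Cy3 and hybridised to 12 one-colour Agilent 4x44K arrays. Before deposit, Feature Extraction 10.1.1.1 (per the labels and the file headers) read the spots and subtracted background, which gave the deposited processed signal, an intensity not yet normalized between arrays. The authors also deposited a table of normalized log2 values. It correlated with the levels used here at r = 0.9997 on each array, although its steps are not stated in full and single Ins1 values differed by up to 0.967. It was used as an alternative. Here the signals of 43379 spots were normalized by quantiles, put on the log2 scale, cleared of 919 outlier spots over all arrays, and averaged over the spots of a probe, with limma 3.58.1 in R 4.3.3. One lmFit and eBayes model with genotype as factor gave 9 comparisons, adjusted by Benjamini-Hochberg over 41174 probes. Exact permutation tests used scipy 1.17.1. Each gene was represented by its brightest probe. Accessions named 25097 probes through RefSeq. Named genes are the hormones in every comparison, the 3 genes most correlated with each, and, of the other lists, members past adjusted p 0.05 (at most 6 of each list) and a few fixed ones, of which 1 is not reported here. The members and lists were chosen with earlier results of these data known. Slides coincided with replicate numbers, so the number was also fitted as a block. Alternatives covered scaling, background, filters, weights, probes and each array left out. The background alternative used the median spot signal. Groups are 3 arrays, which limits precision. The scripts were tested on simulated data.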

Additional observations from a re-analysis of the deposited data

How the results depend on the processing

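Of the counts of hormone genes past an adjusted p of 0.05, which were 0 in all 9 comparisons, 217 recomputed counts were also 0 and 14 were not. In ob/ob vs. WT the count was 2 with a filter on dim probes (Ins1 and Ppy, 22.3% of probes), 4 with weights for single arrays (32.7%), 1 with the authors' values (Gcg, 11.2%), 1 with spots averaged before the quantiles (Gcg, 10.7%, chosen after seeing the data) and 4 at an adjusted p limit of 0.2 (35.3%). With array weights the count was also 1 in POKO vs. WT (9.84%), 2 in POKO vs. ob/ob and 1 in obese vs. lean (25.3%), and at the limit of 0.2 it was 1 in obese vs. lean (30.9%). With 1 array left out, counts ran from 0 to 4 in ob/ob vs. WT, from 0 to 1 in POKO vs. WT and PPARγ2KO vs. WT, from 0 to 2 in obese vs. lean and in the interaction, and were 0 in the other 4 comparisons, and each count above 0 came from the fit without WT replicate 3. The replicate block gave 0 in all 9 comparisons and, of the genes of the other lists in ob/ob vs. WT, ended only the calls of Cd3g, Cd8a, Ms4a1 and Cftr. The replicate numbers did not pair the samples otherwise: deviations from genotype means correlated between -0.322 and 0.276 within a number, and 3 of 12 arrays were closest to their own number.

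The Ins1 minus Ins2 difference between obese and lean arrays was 0.37 with normexp and 0.36 to 0.61 with 1 array left out (exact permutation p = 0.013 to 0.0563), and that for the deletion ran from -0.0835 to 0.215, turning sign without WT replicate 1 or 2. Scaling to the 75th percentile turned the sign of Ins2 (-0.22) and Gcg (-0.14) in ob/ob vs. WT, of Ins2 (-0.0727) and Gcg (-0.0635) in POKO vs. WT, of Ins2 (0.14) and Gcg (0.0724) in POKO vs. ob/ob and of Ins2 in the interaction (0.04). The second Ins2 probe gave 0.0061 in POKO vs. ob/ob. Ghrl in POKO vs. ob/ob was 0.48 with array weights and -0.51 to 0.59 with 1 array left out, and Ppy in POKO vs. WT was -0.10 to 0.57. The causes were not tested. Among single genes, 1101 recomputed fold changes kept their direction and side of the threshold, 21 passed it newly, 101 (all of processing, receptor and transcription factor genes) no longer passed and 12 turned sign. The rank of Ins2 at the top of each array limits its normalized level, and 3 arrays per genotype limit all comparisons. The array-level block of the study's methods could not be fitted, since each array holds 1 sample.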
